A study of Mus musculus with 11 samples.

Results

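The collagen genes were examined in RNA sequencing data from mouse prostate. They were taken as the loci whose symbol is COL, a number, A and a number with nothing after it, and 44 of the 29291 deposited loci fitted this rule. They comprise 11 fibrillar, 6 basement membrane, 3 network, 6 beaded filament, 9 FACIT, 4 transmembrane, 2 multiplexin, 1 anchoring fibril and 2 other collagens. The values were FPKM, fragments scaled to exon length and library depth, computed by the authors for every locus and library. All mice were C57BL/6 and 15 months old. The 4 groups were WT littermates (3 libraries), Pb-ERG (3 libraries), Trp53pcR172H/- (2 libraries) and mice with both alterations (3 libraries), written Pb-ERG;Trp53pcR172H/- and called double-mutant below. Pb-ERG is a TMPRSS2-ERG transgene under the probasin (Pb) promoter, which is active in prostate epithelium. In Trp53pcR172H/- mice a probasin-driven Cre acts on a Trp53 R172H knock-in allele and on a floxed Trp53 allele in the prostate, so that both alterations are directed to the epithelium and not to the stroma. The study describes the libraries as biological replicates from separate mice, with a further Trp53pcR172H/- mouse excluded by the authors for poor quality. It also describes the double-mutant tissue as prostate tumours and the tissues of the whole set as benign or cancerous, without a state for each library in the labels, so that genotype and tumour tissue cannot be told apart in the double-mutant values. Whole tissue was used, and in such bulk samples fewer cells of a type and less RNA per cell cannot be told apart.

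Collagens are the main structural proteins of the extracellular matrix. Their chains repeat glycine at a fixed spacing, which lets them wind into a helix. Fibrillar chains (types I, II, III, V and XI, and the shorter XXIV and XXVII) assemble into the fibrils of connective tissue, and types V and XI set the diameter of fibrils of types I and II. Type IV chains form the sheet of the basement membrane under epithelium, endothelium and muscle. Types VIII and X form hexagonal networks, type VI forms beaded filaments, and FACIT collagens sit on the surface of fibrils. Multiplexins lie near basement membranes, transmembrane collagens are anchored in the cell membrane, and type VII forms the anchoring fibrils under epithelium. In the prostate, fibrillar collagens come mainly from fibroblasts and smooth muscle of the stroma, and type IV chains from every cell that rests on a basement membrane.

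Sequencing depth lay between 14280978 and 51965100 fragments per library, and 14186 to 130249 of them fell in collagen genes. Pb-ERG replicate 2 stood apart, with 60.3% of its fragments in the listed genes against 74.8% to 95.5% in the other libraries. The transgene could be checked: Erg was between 5.81 and 19.6 FPKM in the 6 libraries that carry it and between 0.441 and 0.851 FPKM in the other 5. The Trp53 level cannot check the knock-in, because FPKM does not separate the alleles. A set of 3 abundant small non-coding transcripts (Rmrp, Rn7sk, Rpph1) took over 4% of the fragments in WT replicate 2, Trp53pcR172H/- replicate 2 and all 3 double-mutant libraries, and from 0.89% to 1.76% in the others. All 3 Pb-ERG libraries were thus low and all 3 double-mutant libraries high, so that for these 2 groups this property and the genotype cannot be told apart. Probasin (Pbsn), the luminal secretory marker, averaged 13700 ± 4650 FPKM (SD, n = 3) in WT, 13100 in Trp53pcR172H/-, 4870 in Pb-ERG and 951 ± 1060 FPKM (SD, n = 3) in the double-mutant.

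The summed FPKM of the 44 collagens was 175.3, 189.0 and 189.1 in WT and 187.7 and 155.9 in Trp53pcR172H/-. It was 283.9, 379.9 and 399.4 in Pb-ERG and 590.3, 785.4 and 958.6 in the double-mutant. The sum therefore averaged 1.92 times the WT level in Pb-ERG, 0.931 times in Trp53pcR172H/- and 4.22 times in the double-mutant, and the double-mutant libraries lay above all others. As a share of all fragments the collagens took from 0.099% to 0.119% in the 5 WT and Trp53pcR172H/- libraries and from 0.377% to 0.571% in the double-mutant.

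Fibrillar collagens held a larger share of this sum in each double-mutant library than in any WT or Trp53pcR172H/- library. Fibrillar collagens supplied from 29.2% to 39.0% of the collagen FPKM in WT, from 32.2% to 35.3% in Trp53pcR172H/-, from 40.7% to 57.8% in Pb-ERG and from 55.7% to 75.8% in the double-mutant. Basement membrane collagens supplied from 26.7% to 37.3% in WT, from 10.9% to 29.6% in Pb-ERG and from 7.41% to 20.3% in the double-mutant. Their summed FPKM was nonetheless 59.8 ± 8.0 in WT and 106 ± 30 in the double-mutant (SD, n = 3). Within this class the mean share of Col4a6 went from 17.0% in WT to 0.607% in the double-mutant. The mean share of Col4a5 went from 2.65% to 1.0%, that of Col4a1 from 8.36% to 8.22% and that of Col4a2 from 4.03% to 4.53%. Network collagens went from 2.41 ± 0.461 to 14.8 ± 1.68 FPKM (SD, n = 3), and held under 2.5% of the total in every library. Beaded filament collagens went from 28.5 ± 3.27 to 58.8 ± 14.4 FPKM and from a mean share of 15.4% to 7.56%. Transmembrane collagens went from 6.26 ± 1.67 to 2.77 ± 1.02 FPKM.

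**Figure D1:**
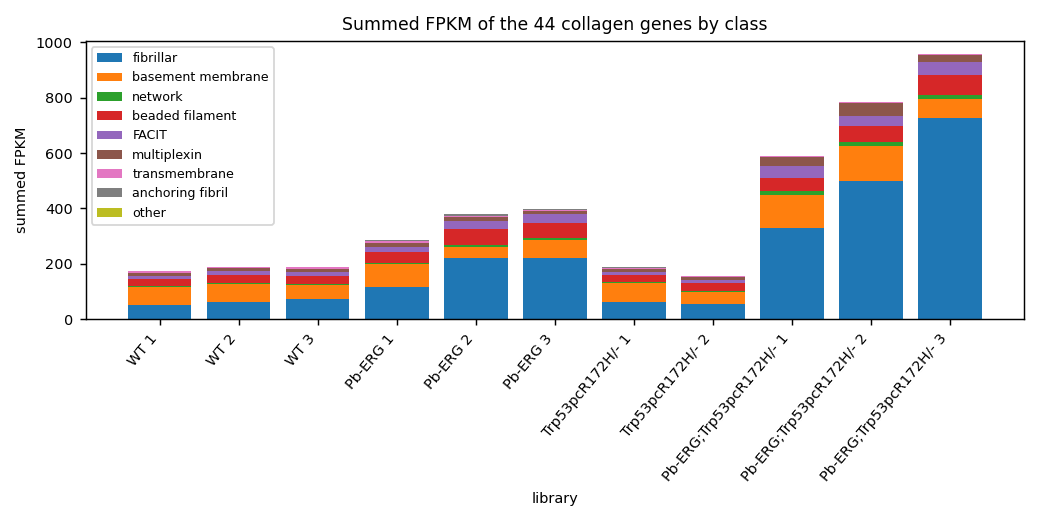
Stacked bars of summed FPKM (vertical axis) of the 44 collagen genes in each of the 11 libraries (horizontal axis), with 1 colour per collagen class. The WT and Trp53pcR172H/- bars reach between 155.9 and 189.1, the Pb-ERG bars between 283.9 and 399.4 and the double-mutant bars between 590.3 and 958.6, with most of the added height in the fibrillar class.

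Genes were tested with limma on log2(FPKM + 1), in 1 model of all 11 libraries, after a filter that kept genes with at least 1 FPKM in at least 2 libraries. Of the 44 collagens, 31 passed this filter among 15583 genes in all. Since a gene could pass through the group where it is high, the 31 are not a sample of all collagens. Col10a1 reached 1 FPKM only in the double-mutant. Outside it, Col11a1 did so only in Pb-ERG replicate 3 and Col5a3 only in Pb-ERG replicate 2. Without the double-mutant libraries these genes would not have passed. A gene is said to have risen or fallen where the p-value adjusted over all genes (Benjamini-Hochberg) was under 0.05.

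Relative to WT, 15 collagens rose and 2 fell in the double-mutant. Over all genes tested, 19.1% rose and 6.26% fell in this comparison. At 0.001, the threshold that the study applied to another test (DESeq2, a model of read counts), 10 collagens rose by limma, against 3.48% of all genes. The median log2 fold change was 0.96 over the 31 collagens and 0.24 over all genes tested. For 17 collagens every double-mutant library was above every WT library, and for 3 every one was below. Over all genes these shares were 32.0% and 12.8%. With median-of-ratios scaling the median of all genes moved from 0.24 to 0.025 and that of the collagens from 0.96 to 0.743, and the same numbers of collagens, 15 and 2, were called. By class, 7 of 8 fibrillar, 2 of 6 basement membrane, 2 of 3 network, 2 of 5 beaded filament, 1 of 4 FACIT and 1 of 2 multiplexin collagens tested rose, and 1 basement membrane and 1 of 2 transmembrane collagens fell.

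In Pb-ERG 3 collagens rose relative to WT, and these were the fibrillar Col1a1, Col5a1 and Col5a2. None fell. Over all genes 1.58% rose and 0.321% fell. The median log2 fold change was 0.61 over the collagens and 0.13 over all genes. The libraries of Pb-ERG lay above all WT libraries without overlap for 19 of the 31 collagens, against 22.8% of all genes. The 3 calls were not kept in every fit with 1 library fewer. On leaving out any 1 of the WT libraries, Pb-ERG replicate 2 or Pb-ERG replicate 3, 0 collagens were called. In those fits the log2 fold changes were 1.52 to 1.92 for Col1a1, 0.91 to 1.08 for Col5a1 and 1.25 to 1.57 for Col5a2. With all libraries they were 1.77, 1.01 and 1.44. There were 7 calls without Pb-ERG replicate 1, and 5 without double-mutant replicate 1, which enters through the shared spread. No collagen passed in Trp53pcR172H/- against WT, where limma called 0.00642% of all genes, a single gene. At an unadjusted p under 0.05 the count there was 0 of 31 collagens and 251 of all genes, and limma-voom on fragments also called 0 collagens. The median log2 fold change in Trp53pcR172H/- was -0.029 over the collagens and 0.015 over all genes.

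Relative to Pb-ERG, 11 collagens were higher in the double-mutant and 1 was lower. Over all genes 7.16% were higher and 1.95% lower. When the small non-coding RNA class was a term in the fit, 0 collagens passed, while the log2 differences of the 11 higher collagens, from 1.15 to 2.59 without that term, were from 1.06 to 2.69 with it. For example Col5a2 went from 2.04 to 2.22 on the log2 scale (adjusted p = 0.0584) and Col1a1 from 1.63 to 1.68 (adjusted p = 0.257), while Col17a1 went from -1.24 to -0.63 (adjusted p = 0.633). With FPKM rescaled to the same sum in every library, the median of all genes moved from 0.079 to -0.581 and that of the 31 collagens from 0.468 to -0.283, and the split was 1 higher (Col11a1) and 3 lower (Col4a6, Col6a3 and Col17a1). Of these calls, that on Col12a1 was lost on leaving out any 1 WT or double-mutant library or Pb-ERG replicate 1, that on Col3a1 without Pb-ERG replicate 1 or double-mutant replicate 2 or 3, and that on Col17a1 without Pb-ERG replicate 1 or 3, WT replicate 3 or double-mutant replicate 1 or 3. Relative to Trp53pcR172H/-, 15 were higher and 1 was lower, against 11.5% and 3.27% of all genes, and 7 were higher at 0.001, against 0.995% of all genes. Without Trp53pcR172H/- replicate 1 the calls on Col1a2, Col6a1, Col6a2 and Col4a6 were lost, and without replicate 2 also that on Col16a1. Without double-mutant replicate 1 the calls on Col16a1 and Col4a6 were lost, and without replicate 3 that on Col4a6. The comparisons share the double-mutant libraries and are not independent of each other.

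The interaction asks whether the double-mutant level departs from the sum of the 2 single changes on the log2 scale. No collagen passed this test at an adjusted p of 0.05, where 0.468% of all genes did. At an unadjusted p under 0.05 there were 13 of 31 collagens and 1562 of all genes, and limma-voom again called 0 collagens. The nearest to the threshold were Col5a2, with an interaction of 2.07 ± 0.39 (log2, SE) and an adjusted p of 0.0511, and Col15a1, with 1.86 ± 0.352 and 0.0521. Leaving out double-mutant replicate 3 brought Col5a2, Col11a1, Col15a1 and Col4a2 past the threshold, and leaving out Pb-ERG replicate 1 brought Col5a2 past it.

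**Figure D2:**
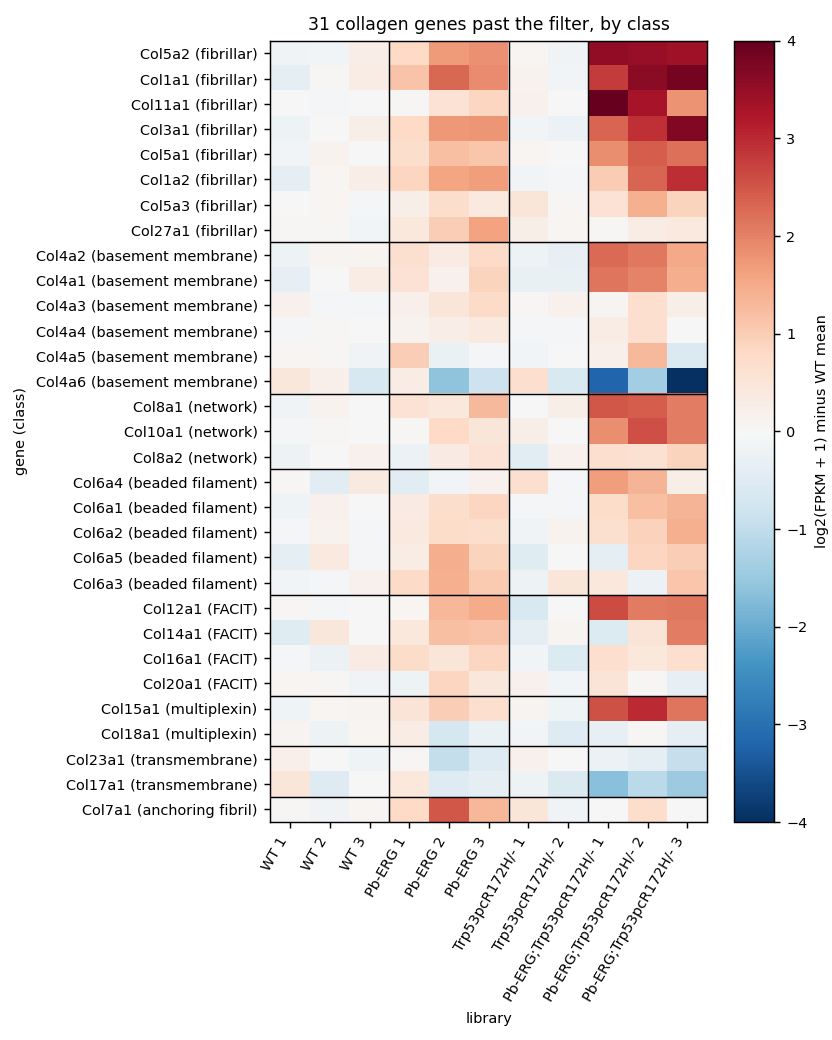
Colour shows log2(FPKM + 1) minus the WT mean (scale from -4 to 4) for the 31 collagens past the filter (rows, grouped by class) in the 11 libraries (columns, grouped by genotype). The double-mutant columns are red for most fibrillar and network rows and blue for Col4a6 and Col17a1, and the Trp53pcR172H/- columns stay near white for most rows.

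The DNA just upstream of these genes differs in composition, and 4 collagens that rose and 1 that fell are shown for that reason. The windows were read from RefSeq records on GRCm38.p6, cover the 250 bases before the annotated start, are written 5′ to 3′ on the strand of the gene and overlap no annotated exon. Capitals mark GGAAG or its reverse complement CTTCC, the core shared by binding sites of ETS factors, the family of ERG. A match to these letters is a description of the sequence and not a binding site. The windows are Col3a1 (chr1:45311288-45311537, plus strand), Col5a1 (chr2:27886175-27886424, plus), Col11a1 (chr3:114030290-114030539, plus), Col15a1 (chr4:47207762-47208011, plus) and Col4a6 (chrX:141474077-141474326, minus).
Col3a1: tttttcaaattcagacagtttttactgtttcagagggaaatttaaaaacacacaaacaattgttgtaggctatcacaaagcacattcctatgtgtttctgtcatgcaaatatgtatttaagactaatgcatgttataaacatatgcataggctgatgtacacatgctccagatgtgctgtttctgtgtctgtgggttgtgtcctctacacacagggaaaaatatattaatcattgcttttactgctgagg
Col5a1: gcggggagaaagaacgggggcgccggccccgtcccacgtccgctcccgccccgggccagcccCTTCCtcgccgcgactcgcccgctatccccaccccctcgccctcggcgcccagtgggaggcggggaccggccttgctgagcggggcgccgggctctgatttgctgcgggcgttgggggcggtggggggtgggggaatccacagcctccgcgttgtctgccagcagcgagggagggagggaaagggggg
Col11a1: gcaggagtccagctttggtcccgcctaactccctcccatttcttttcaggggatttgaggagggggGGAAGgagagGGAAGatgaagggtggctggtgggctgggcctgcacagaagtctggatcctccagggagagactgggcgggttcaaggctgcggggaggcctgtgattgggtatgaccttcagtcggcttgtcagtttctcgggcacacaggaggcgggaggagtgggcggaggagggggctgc
Col15a1: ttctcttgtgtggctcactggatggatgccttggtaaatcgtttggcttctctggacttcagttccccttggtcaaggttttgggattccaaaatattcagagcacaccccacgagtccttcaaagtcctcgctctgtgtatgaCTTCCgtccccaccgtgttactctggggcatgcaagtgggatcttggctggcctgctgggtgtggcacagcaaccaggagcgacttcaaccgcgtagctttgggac
Col4a6: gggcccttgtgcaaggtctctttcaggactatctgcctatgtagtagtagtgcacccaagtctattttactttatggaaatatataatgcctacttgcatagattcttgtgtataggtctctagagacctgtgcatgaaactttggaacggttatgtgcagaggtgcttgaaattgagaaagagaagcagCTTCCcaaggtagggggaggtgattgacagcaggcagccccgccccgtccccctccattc

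Col3a1 was AT-rich here, with 35.2% G and C, and held 1 TATAAA and no ETS core, while Col5a1 had 76.4% G and C. Col11a1 held 2 ETS cores in this window, Col5a1, Col15a1 and Col4a6 1 each. Of the 44 collagens 35 had a window in the table, 38 windows in all, and Col1a1, Col5a2 and Col12a1 were among those not matched. On either strand GGAAG occurred in 73.7% of the collagen windows and in 64.1% of all 32851 windows of this length, TATAAA in 13.2% and 12.4%, CCAAT in 34.2% and 33.8%, and GGGCGG in 57.9% and 32.7%. CCGGAAG, which holds the ETS core, was in 0 of 38 collagen windows and in 6.9% of all windows.

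Fibrillar collagens gave the most abundant transcripts of the family. Col3a1, the type III chain of elastic tissues (GRCm38, chr1:45311538-45349706), was the highest collagen in 8 of 11 libraries. It measured 27.0, 31.1 and 36.9 FPKM in WT, 29.3 and 26.3 in Trp53pcR172H/-, 55.1, 107 and 110.0 in Pb-ERG and 162, 244 and 419 in the double-mutant. The groups stood in separate ranges in that order, except that WT and Trp53pcR172H/- overlapped. Its log2 fold change over WT was 2.98 ± 0.37 (SE) in the double-mutant (adjusted p = 0.000333) and 1.43 ± 0.37 in Pb-ERG (adjusted p = 0.0767). Against Pb-ERG the double-mutant was 1.55 ± 0.37 higher (adjusted p = 0.0272).

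Type I collagen is built from the products of Col1a1 and Col1a2, with the Col1a1 chain in excess. Col1a1 (chr11:94936224-94953042) measured 4.20, 5.85 and 7.07 FPKM in WT, 6.20 and 5.17 in Trp53pcR172H/-, 13.6, 31.3 and 23.4 in Pb-ERG and 44.8, 78.7 and 92.5 in the double-mutant. Col1a2 (chr6:4505493-4541543) measured 14.2, 19.9 and 22.7 FPKM in WT, 17.3 and 17.5 in Trp53pcR172H/-, 34.6, 57.4 and 61.6 in Pb-ERG and 38.5, 96.4 and 150.0 in the double-mutant. For Col1a1 the double-mutant libraries stood above every Pb-ERG library, whereas for Col1a2 double-mutant replicate 1 lay among the Pb-ERG libraries. Col1a1 rose by 3.40 ± 0.338 (log2, SE) in the double-mutant (adjusted p = 0.000109) and by 1.77 ± 0.338 in Pb-ERG (adjusted p = 0.0264). Col1a2 rose by 2.09 ± 0.43 in the double-mutant (adjusted p = 0.00559), and its value in Pb-ERG was 1.37 ± 0.43 (adjusted p = 0.124). The ratio of Col1a1 to Col1a2 FPKM was 0.295, 0.295 and 0.311 in WT, from 0.38 to 0.546 in Pb-ERG and from 0.615 to 1.16 in the double-mutant.

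Type V chains, which start fibrils, rose in the double-mutant against WT, as type I did. Col5a2 (chr1:45374321-45503282) lies 24614 bases from Col3a1 and had the smallest p-value of the family. It measured 3.09, 3.22 and 4.40 FPKM in WT, 3.75 and 3.11 in Trp53pcR172H/-, 6.91, 13.8 and 15.0 in Pb-ERG and 52.3, 50.2 and 46.2 in the double-mutant. The double-mutant libraries lay close together and stood over 3 times above the highest Pb-ERG library. The log2 fold change over WT was 3.48 ± 0.26 in the double-mutant (adjusted p = 3e-05), a 13.9-fold ratio of mean FPKM, and 1.44 ± 0.26 in Pb-ERG (adjusted p = 0.0205). Col5a1 (chr2:27886425-28039514), whose upstream window was the richest in G and C of those printed, measured 1.80, 2.32 and 2.0 FPKM in WT, 2.21 and 2.07 in Trp53pcR172H/-, 3.94, 6.04 and 5.58 in Pb-ERG and 10.1, 15.2 and 13.0 in the double-mutant. It rose by 2.17 ± 0.201 in the double-mutant (adjusted p = 8.05e-05) and by 1.01 ± 0.201 in Pb-ERG (adjusted p = 0.0298). The calls on these rises in Pb-ERG were lost when a single WT library was left out. Col5a3, a minor type V chain, was low, with 0.318, 0.382 and 0.269 FPKM in WT, 0.853 and 0.378 in Trp53pcR172H/-, 0.558, 1.13 and 0.731 in Pb-ERG and 0.965, 2.55 and 1.45 in the double-mutant. It rose by 0.96 ± 0.248 against WT (adjusted p = 0.0169), and the call was lost without WT replicate 1 or 3 or double-mutant replicate 2. This call was also lost with FPKM rescaled to the same sum (adjusted p = 0.146, limma) and with the small non-coding RNA class in the fit (adjusted p = 0.0614).

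Col11a1 (chr3:114030540-114220718), a chain of cartilage fibrils, was low outside the double-mutant. It measured 0.136, 0.0801 and 0.140 FPKM in WT, 0.253 and 0.137 in Trp53pcR172H/-, 0.145, 0.668 and 1.02 in Pb-ERG and 18.6, 9.89 and 2.90 in the double-mutant. The 3 double-mutant libraries all lay above the others but spread widely among themselves, and WT values rested on as few as 10 fragments in a library. The log2 fold change was 3.07 ± 0.465 against WT (adjusted p = 0.001) and 2.59 ± 0.465 against Pb-ERG (adjusted p = 0.00769). In Pb-ERG against WT it was 0.49 ± 0.465 (adjusted p = 0.578), with a ratio of mean FPKM of 5.13 and Pb-ERG replicate 1 next to WT. Because 1 was added to each FPKM before the logarithm, these log2 values understate the change. The ratio of mean FPKM of the double-mutant to WT was 88.1, or 53.9 without double-mutant replicate 1. Col11a2, its partner, did not pass the filter but reached 1.27 and 0.823 FPKM in double-mutant replicates 1 and 2 against 0.0453 in replicate 3, the same library that was lowest for Col11a1.

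Col27a1 was the only fibrillar collagen tested that was not higher in the double-mutant by the test, with 0.178 ± 0.075 FPKM (SD, n = 3) in WT and 0.399 ± 0.163 in the double-mutant (log2 fold change 0.24 ± 0.278, adjusted p = 0.551). Its highest values were in Pb-ERG, with 0.584, 1.31 and 2.61 FPKM (adjusted p against WT = 0.09). Col2a1 of cartilage and Col24a1 stayed under 0.22 FPKM in every library.

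**Figure D3:**
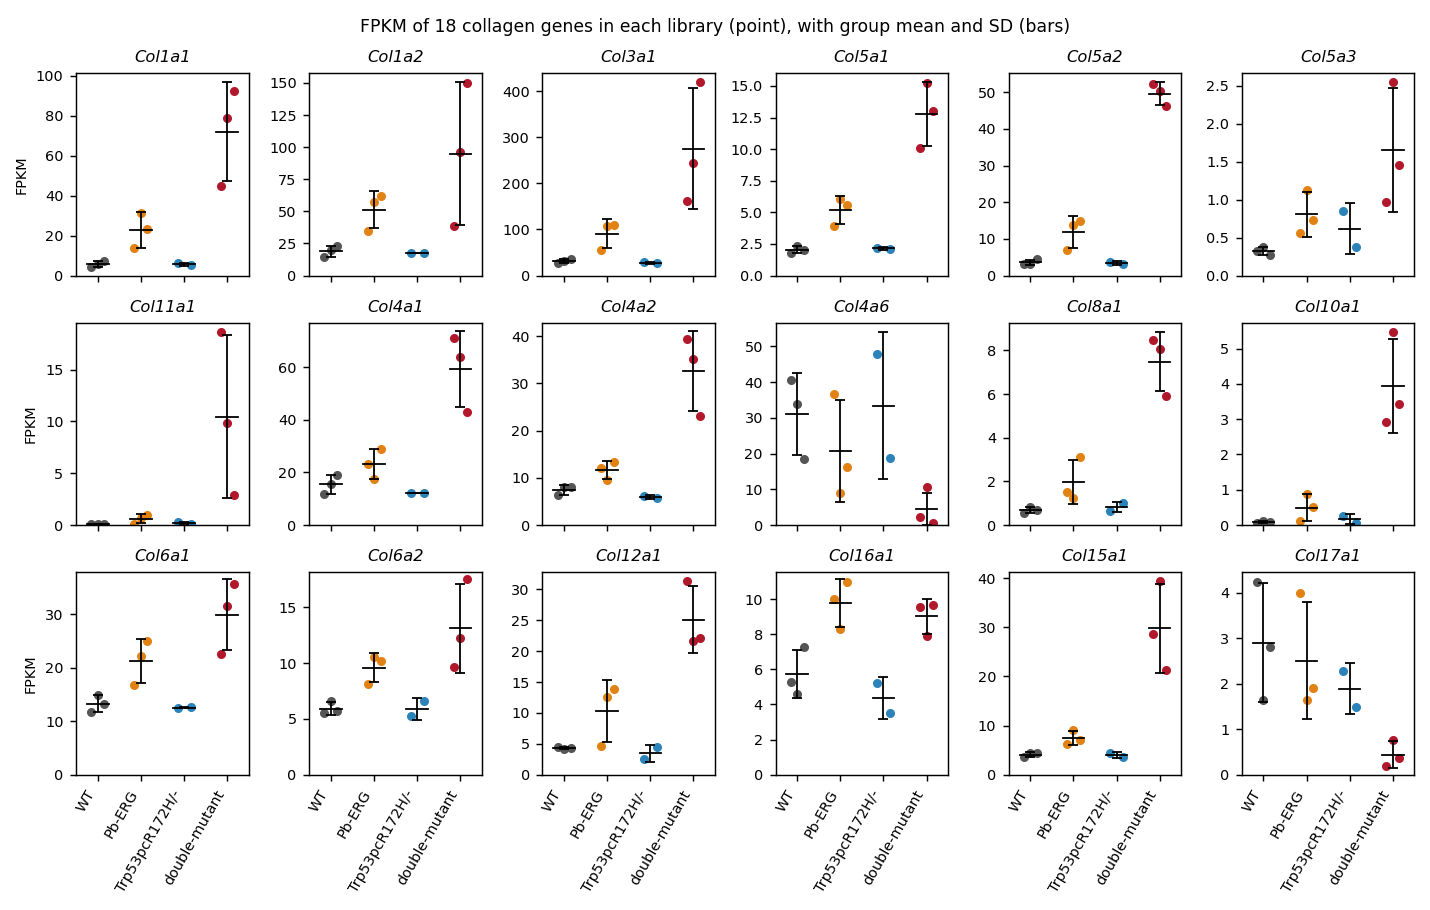
FPKM (vertical axes, linear and starting at 0) of the 18 collagens described library by library, with 1 point per library, a line at the group mean and bars for the SD, whose lower arm stops at 0. Points for Col5a2, Col15a1 and Col4a2 in the double-mutant are clear of all others, while Col4a6 and Col17a1 are lowest there.

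Basement membrane collagens differed between chain pairs and also within the pair of Col4a5 and Col4a6. Their genes lie head to head in pairs, and Col4a1 (chr8:11198423-11312826) and Col4a2 (chr8:11312805-11449287) overlap by 22 bases at their starts, so that reads in those bases could not be assigned without strand. Col4a1 and Col4a2 encode the chains of the type IV collagen found in nearly all basement membranes. Col4a1 measured 12.0, 15.5 and 19.0 FPKM in WT, 12.1 and 12.2 in Trp53pcR172H/-, 23.1, 17.4 and 28.9 in Pb-ERG and 71.0, 63.8 and 43.1 in the double-mutant. Col4a2 measured 6.33, 7.99 and 8.02 FPKM in WT, 6.25 and 5.69 in Trp53pcR172H/-, 12.2, 9.62 and 13.3 in Pb-ERG and 39.5, 35.2 and 23.2 in the double-mutant. In both genes double-mutant replicate 3 was the lowest of its group and still above every library of the other groups. Col4a1 rose by 1.86 ± 0.263 (log2, SE; adjusted p = 0.000691) and Col4a2 by 1.97 ± 0.226 (adjusted p = 0.000219) against WT, and by 1.32 ± 0.263 (adjusted p = 0.0121) and 1.38 ± 0.226 (adjusted p = 0.0048) against Pb-ERG. In Pb-ERG against WT the values were 0.54 ± 0.263 and 0.59 ± 0.226 (adjusted p = 0.285 and 0.191). The ratio of Col4a1 to Col4a2 FPKM stayed between 1.80 and 2.36 in the 11 libraries.

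Col4a5 and Col4a6 form another head-to-head pair, 1308 bases apart on chromosome X, whose chains are used together in basement membranes of smooth muscle and some epithelia. Col4a6 (chrX:141165403-141474076) was the most abundant collagen of 2 WT libraries and 1 Trp53pcR172H/- library. It measured 40.7, 34.0 and 18.4 FPKM in WT, 47.9 and 18.9 in Trp53pcR172H/-, 36.7, 9.02 and 16.3 in Pb-ERG and 2.38, 10.6 and 0.652 in the double-mutant. Its double-mutant libraries lay below every WT and Trp53pcR172H/- library and overlapped Pb-ERG. Col4a6 fell by 2.92 on the log2 scale (SE 0.69, adjusted p = 0.0111) against WT and by 2.96 (SE 0.772, adjusted p = 0.0267) against Trp53pcR172H/-, and both calls were lost with the small non-coding RNA class in the fit, at log2 values of -2.67 and -2.76 (adjusted p = 0.0796 and 0.0854). Col4a5 did not follow it, with 5.22, 5.06 and 4.35 FPKM in WT, 4.43 and 4.89 in Trp53pcR172H/-, 10.7, 3.86 and 4.54 in Pb-ERG and 5.80, 13.5 and 2.93 in the double-mutant (log2 fold change against WT 0.31 ± 0.434, adjusted p = 0.625). The ratio of Col4a5 to Col4a6 FPKM was 0.128, 0.149 and 0.236 in WT, from 0.0924 to 0.259 in Trp53pcR172H/-, from 0.279 to 0.428 in Pb-ERG and 2.44, 1.27 and 4.5 in the double-mutant, so that the order of the pair was inverted there in 3 of 3 libraries. All 8 smooth muscle markers fell in the double-mutant as well, against 6.26% of all genes, with a median log2 fold change of -3.18 against WT. Their part in the Col4a6 values was not tested.

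Col4a3 and Col4a4, the pair best known from the kidney glomerulus, were low in all libraries, between 0.237 and 1.52 FPKM. Their log2 fold changes in the double-mutant were 0.34 ± 0.228 (adjusted p = 0.301) and 0.32 ± 0.205 (adjusted p = 0.271).

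Ratios were computed for 12 pairs of chains and compared between groups by an exact two-sided permutation test of the log2 ratio. The smallest p-value that 3 libraries against 3 can give is 0.1, and adjusted over the 12 pairs the smallest was 0.15 for the double-mutant against WT. The ratio of Col1a1 to Col1a2 was 2.88 times higher in the double-mutant than in WT, that of Col5a2 to Col5a1 2.27 times, that of Col4a5 to Col4a6 16.0 times and that of Col8a1 to Col8a2 5.36 times, each without overlap of libraries and each at the exact p of 0.1. Col11a1 to Col5a1 measured 0.0759, 0.0345 and 0.0701 in WT and 1.85, 0.649 and 0.223 in the double-mutant (exact p = 0.1), which is 15.1 times higher with all libraries and 7.25 times without double-mutant replicate 1. Col6a2 to Col6a1 gave 0.978 times with overlapping libraries (exact p = 0.9), and Col4a1 to Col4a2 gave 0.881 times without overlap (exact p = 0.1).

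**Figure D4:**
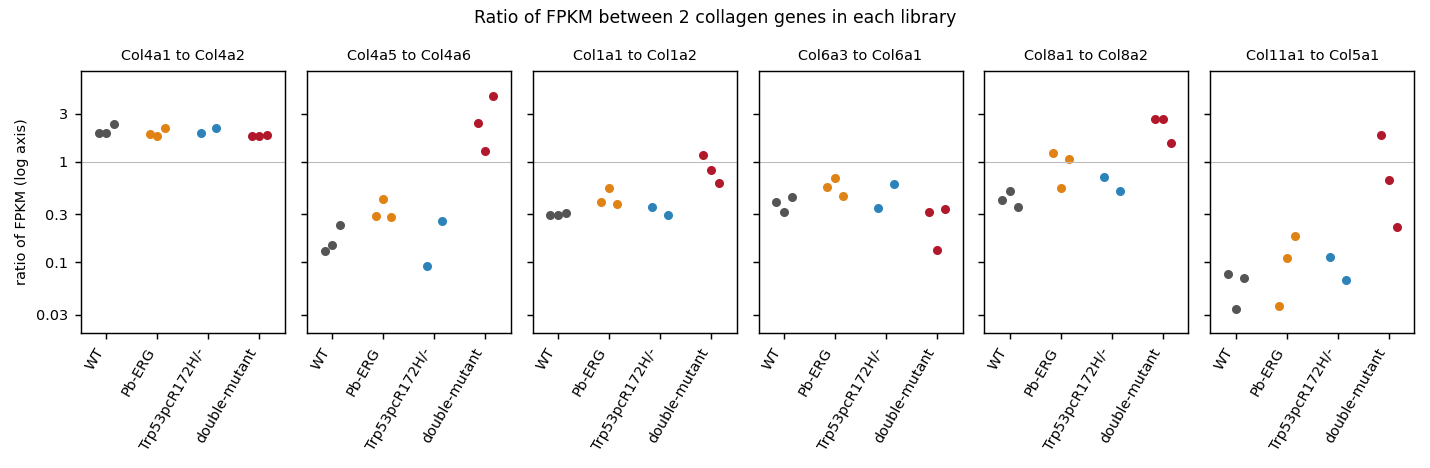
Ratio of FPKM between 2 collagens (vertical axis, log scale, shared by all panels) for 6 of the 12 pairs, with 1 point per library and the groups along the horizontal axis. Col4a1 to Col4a2 stays between 1.80 and 2.36, whereas Col4a5 to Col4a6 lies under 0.43 in the 8 other libraries and over 1 in the 3 double-mutant libraries.

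Of the 3 network collagens 2 rose in the double-mutant. Col8a1, a short chain of vessel walls and of the cornea, measured 0.539, 0.842 and 0.694 FPKM in WT, 0.660 and 1.0 in Trp53pcR172H/-, 1.5, 1.26 and 3.11 in Pb-ERG and 8.46, 8.07 and 5.93 in the double-mutant. Col10a1, the collagen of hypertrophic cartilage, measured 0.0455, 0.118 and 0.0809 FPKM in WT, 0.264 and 0.0671 in Trp53pcR172H/-, 0.114, 0.873 and 0.502 in Pb-ERG and 2.92, 5.46 and 3.44 in the double-mutant. For both genes all 3 double-mutant libraries stood above the other 8. Col8a1 rose by 2.32 ± 0.243 (log2, SE; adjusted p = 0.000139) and Col10a1 by 2.16 ± 0.251 (adjusted p = 0.000234) against WT, and by 1.56 ± 0.243 (adjusted p = 0.00392) and 1.72 ± 0.251 (adjusted p = 0.00289) against Pb-ERG. Col10a1 passed the filter only through the double-mutant, the group where it is high, so its call is not independent of the filter. It rested on 3 to 9 fragments in its lowest libraries, and its ratio of mean FPKM to WT was 48.4. Col8a2 went from 1.63 ± 0.333 to 3.35 ± 0.444 FPKM (SD, n = 3; log2 fold change 0.73 ± 0.245, adjusted p = 0.0506), and passed when either Trp53pcR172H/- library, or Pb-ERG replicate 1 or 3, was left out.

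Of the 5 type VI chains tested, Col6a1 and Col6a2 rose. Col6a1 measured 11.7, 14.9 and 13.3 FPKM in WT, 12.5 and 12.6 in Trp53pcR172H/-, 16.8, 22.2 and 24.9 in Pb-ERG and 22.6, 31.6 and 35.6 in the double-mutant. Col6a2, its neighbour on chromosome 10 at a distance of 85161 bases, measured 5.52, 6.57 and 5.67 FPKM in WT, 5.22 and 6.60 in Trp53pcR172H/-, 8.10, 10.5 and 10.2 in Pb-ERG and 9.68, 12.2 and 17.5 in the double-mutant. In both genes the double-mutant libraries were above all WT libraries and overlapped Pb-ERG. Col6a1 rose by 1.09 ± 0.223 (adjusted p = 0.00535) and Col6a2 by 1.0 ± 0.222 (adjusted p = 0.00828) against WT. Both calls were lost when FPKM was rescaled to the same sum (adjusted p = 0.16 and 0.17). That on Col6a2 was also lost with the small non-coding RNA class in the fit (adjusted p = 0.0729, limma). Col6a3, which joins those 2 chains in the type VI filament, measured 4.64, 4.72 and 5.90 FPKM in WT, 4.27 and 7.52 in Trp53pcR172H/-, 9.30, 15.1 and 11.4 in Pb-ERG and 7.12, 4.15 and 12.1 in the double-mutant. Its values did not pass in the double-mutant (0.43 ± 0.326, adjusted p = 0.356) or in Pb-ERG (1.07 ± 0.326, adjusted p = 0.116). The ratio of Col6a3 to Col6a1 was from 0.317 to 0.443 in WT and from 0.458 to 0.681 in Pb-ERG. In the double-mutant it was from 0.131 to 0.339. The Pb-ERG ratios overlapped neither WT nor the double-mutant (exact permutation p = 0.1 for each). The double-mutant ratios overlapped those of WT (exact permutation p = 0.2). Col6a4 and Col6a5 gave log2 fold changes of 1.10 ± 0.38 and 0.50 ± 0.395 against WT (adjusted p = 0.0566 and 0.38). Col6a4, at 3.46, 2.59 and 0.625 FPKM in the double-mutant, passed without its replicate 3, and Col6a6 did not pass the filter.

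Among the 4 FACIT collagens tested, Col12a1, which coats type I fibrils, was the one that rose against WT. It measured 4.53, 4.17 and 4.27 FPKM in WT, 2.46 and 4.41 in Trp53pcR172H/-, 4.62, 12.5 and 13.8 in Pb-ERG and 31.3, 21.7 and 22.2 in the double-mutant, and Pb-ERG replicate 1 lay next to WT. Col12a1 rose by 2.27 ± 0.342 against WT (adjusted p = 0.000979) and by 1.31 ± 0.342 against Pb-ERG (adjusted p = 0.0381). With the replicate number as a block, which joins same-numbered libraries of all 4 groups, the latter adjusted p was 0.0551. Col16a1 measured 5.30, 4.60 and 7.26 FPKM in WT, 5.21 and 3.51 in Trp53pcR172H/-, 10, 8.32 and 11 in Pb-ERG and 9.55, 7.88 and 9.64 in the double-mutant. The 6 libraries with the transgene were thus above the 5 without it, but only the difference from Trp53pcR172H/- passed (0.92 ± 0.235, adjusted p = 0.0245), and that from WT did not (0.59 ± 0.21, adjusted p = 0.0609). Col14a1, a FACIT collagen of mature fibrils, spread widely within the double-mutant, with 1.24, 3.68 and 12.4 FPKM (log2 fold change against WT 0.68 ± 0.533, adjusted p = 0.374). Col20a1 gave 0.07 ± 0.294 (adjusted p = 0.876).

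Col15a1, a multiplexin that links fibrils to the basement membrane, rose in the double-mutant against each of the other groups. It measured 3.51, 4.31 and 4.45 FPKM in WT, 4.44 and 3.54 in Trp53pcR172H/-, 6.32, 9.08 and 7.13 in Pb-ERG and 28.7, 39.4 and 21.3 in the double-mutant. Every double-mutant library was over 2 times the highest Pb-ERG library. The log2 fold change was 2.56 ± 0.235 against WT (adjusted p = 7.82e-05) and 1.83 ± 0.235 against Pb-ERG (adjusted p = 0.00143). Col18a1, the other multiplexin, stayed between 3.39 and 7.73 FPKM in all libraries (log2 fold change against WT -0.22 ± 0.257, adjusted p = 0.558).

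Of the transmembrane collagens, Col17a1 holds basal epithelial cells to the basement membrane in hemidesmosomes. It measured 4.24, 1.63 and 2.81 FPKM in WT, 2.28 and 1.49 in Trp53pcR172H/-, 3.98, 1.63 and 1.90 in Pb-ERG and 0.181, 0.764 and 0.375 in the double-mutant, whose libraries were below all others. Col17a1 fell by 1.40 on the log2 scale against WT (SE 0.313, adjusted p = 0.00864) and by 1.24 against Pb-ERG (SE 0.313, adjusted p = 0.0333). Both calls were lost with the small non-coding RNA class in the fit, at log2 values of -0.99 and -0.63 (adjusted p = 0.0919 and 0.633). All 4 basal epithelial markers fell against WT too, where 6.26% of all genes did. Among them Krt5 went from 12.8 ± 6.21 to 1.23 ± 0.859 FPKM (SD, n = 3) and Trp63 from 2.27 ± 0.372 to 0.203 ± 0.137. The part of these markers in the Col17a1 values was not tested. Col23a1 went from 2.73 ± 0.476 to 1.64 ± 0.626 FPKM (SD, n = 3; log2 fold change -0.52 ± 0.271, adjusted p = 0.183). Col7a1, the anchoring fibril collagen, was highest in Pb-ERG, with 2.01, 8.55 and 3.37 FPKM against 0.770, 0.578 and 0.828 in WT (log2 fold change 1.54 ± 0.382, adjusted p = 0.0692), and measured 0.742, 1.81 and 0.700 in the double-mutant.

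The other collagens did not pass the filter. Col9a1, Col9a2, Col9a3, Col13a1, Col19a1, Col22a1, Col25a1, Col26a1 and Col28a1 each stayed under 0.82 FPKM in all 11 libraries. Among them Col25a1 measured 0.516, 0.640 and 0.110 FPKM in the double-mutant and at most 0.0569 elsewhere, and Col13a1 0.262 on average in the double-mutant and 0.618 in WT.

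**Figure D5:**
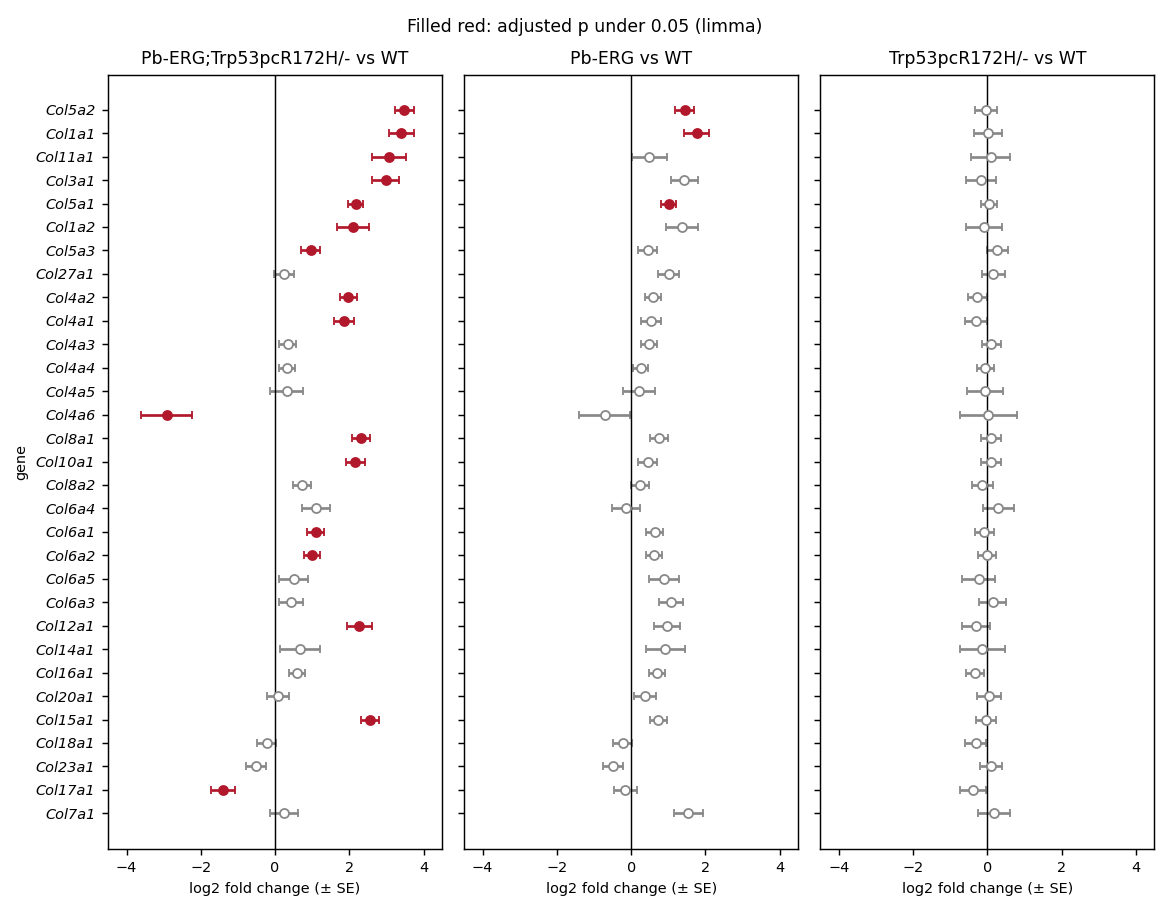
Log2 fold change against WT (horizontal axes, on the log2(FPKM + 1) scale, bars for the SE) of the 31 collagens past the filter, for the double-mutant, Pb-ERG and Trp53pcR172H/-, with filled red points for an adjusted p under 0.05 (limma). There are 17 filled points for the double-mutant, 3 for Pb-ERG and none for Trp53pcR172H/-.

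The chain classes also differ in the length of the helix. In proteins translated from GENCODE M21 transcripts of the same build, the longest unbroken run of glycine-led triplets was 337 to 344 triplets in 9 of the 11 fibrillar chains. Col2a1 (339 triplets) and Col11a2 (338 triplets), which did not pass the filter on low values, are among these 9. It was 217 triplets in Col27a1 and 216 in Col24a1. It was 39 to 66 triplets in the 6 type IV chains, in 22 to 27 separate runs, and 59 to 60 in the 3 network chains.

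Genes that make, trim and bind collagen were also counted, and each count of the double-mutant against WT stands beside 19.1% of all genes higher and 6.26% lower. Of 20 genes for chain modification and folding 19 were tested, and 9 rose and 0 fell in the double-mutant against WT, with a median log2 fold change of 0.72 against 0.24 over all genes tested. The largest rises were of Serpinh1, the collagen chaperone HSP47 (25.5 ± 5.67 to 131 ± 21.2 FPKM, SD, n = 3; log2 fold change 2.33 ± 0.276, adjusted p = 0.000252), Fkbp14 (1.73 ± 0.18, adjusted p = 0.000135), Fkbp10 (1.71 ± 0.184, adjusted p = 0.000153) and the lysyl hydroxylase gene Plod2 (1.67 ± 0.445, adjusted p = 0.0195). Serpinh1 and Fkbp10 also passed the interaction test (adjusted p = 0.0403 and 0.0367, limma). Over the alternative fits described below the adjusted p ran from 0.0436 to 0.262 for Serpinh1 and from 0.0252 to 0.604 for Fkbp10. Neither call thus held in every fit. P4hb, a subunit of prolyl hydroxylase that also serves other proteins, gave -0.12 ± 0.383 (adjusted p = 0.848). Of 8 genes for procollagen trimming 5 were tested (median 1.91) and 4 rose, namely Bmp1 (2.44 ± 0.221, adjusted p = 7.35e-05), Adamts2 (2.27 ± 0.26, adjusted p = 0.000214), Pcolce (1.91 ± 0.355, adjusted p = 0.00324) and Adamts3 (1.11 ± 0.19, adjusted p = 0.00205).

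Of 10 collagen receptors 7 were tested (median log2 fold change 0.55) and 3 rose, against 19.1% of all genes, which were the uptake receptor Mrc2 (2.33 ± 0.254, adjusted p = 0.000172), the leukocyte receptor Lair1 (1.77 ± 0.317, adjusted p = 0.00266) and the integrin chain gene Itga2 (1.30 ± 0.323, adjusted p = 0.0141). The discoidin domain receptor genes Ddr1 and Ddr2 gave -0.28 ± 0.361 and 0.35 ± 0.39 (adjusted p = 0.603 and 0.546). Of 12 fibril-binding proteins tested 3 rose and 1 fell, shares near those over all genes (19.1% and 6.26%), with a median log2 fold change of -0.42. Thbs2 rose by 4.21 ± 0.317 (adjusted p = 3e-05), Sparc by 2.85 ± 0.342 (adjusted p = 0.000265) and Fn1 by 2.55 ± 0.255 (adjusted p = 0.000114), while Fmod, the small proteoglycan fibromodulin, fell by 1.87 (SE 0.336, adjusted p = 0.00268). Decorin (Dcn) averaged 208 ± 44.8 FPKM in WT and 191 ± 161 in the double-mutant (log2 fold change -0.44 ± 0.51, adjusted p = 0.559).

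Of 16 basement membrane partners 8 rose and 3 fell (median log2 fold change 0.76), against 19.1% and 6.26% of all genes. The largest rises were of Lama5 (1.96 ± 0.53, adjusted p = 0.0208), the peroxidasin gene Pxdn, which cross-links type IV collagen (1.53 ± 0.247, adjusted p = 0.00146), and the nidogen genes Nid1 (1.34 ± 0.273, adjusted p = 0.00524) and Nid2 (1.32 ± 0.233, adjusted p = 0.0024). The 3 that fell were the laminin genes Lama3 (by 1.89, SE 0.396, adjusted p = 0.00605), Lamb3 (by 1.32, SE 0.293, adjusted p = 0.00833) and Lamc3 (by 1.21, SE 0.263, adjusted p = 0.00721). Lama3 and Lamb3 encode chains of laminin-332, the ligand under hemidesmosomes. Of 11 genes for TGF-beta ligands, receptors and matrix targets 6 rose and 1 fell (median 0.9, same shares over all genes), with Tgfb1 (2.63 ± 0.245, adjusted p = 8.05e-05), Tgfbr2 (1.94 ± 0.287, adjusted p = 0.000884), Ccn2 (1.88 ± 0.393, adjusted p = 0.00605) and Ltbp2 (1.5 ± 0.372, adjusted p = 0.0141) rising most and Tgfbr3 falling (by 0.85, SE 0.21, adjusted p = 0.0141).

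The same 6 lists were counted in the other comparisons. In Pb-ERG against WT 1 fibril-binding gene (Fn1), 1 basement membrane partner (Hspg2) and 1 TGF-beta gene (Tgfb1) rose, against 1.58% of all genes, and none of the other 3 lists had a call. In Trp53pcR172H/- against WT none of the 6 lists had a call, against 0.00642% of all genes. Against Pb-ERG, the double-mutant was higher for 4 modification genes, 3 trimming genes, 1 receptor, 3 fibril-binding genes, 2 basement membrane partners and 2 TGF-beta genes, and lower for 1 fibril-binding and 1 TGF-beta gene, against 7.16% and 1.95% of all genes. Against Trp53pcR172H/- the counts were 9, 4, 2, 3, 7 and 6 higher in the same order, and 1 fibril-binding gene and 2 basement membrane partners were lower, against 11.5% and 3.27% of all genes. The interaction called 2 modification genes and 1 fibril-binding gene (Thbs2, adjusted p = 0.0188), against 0.468% of all genes.

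Markers of the cell types that make or border collagen were counted in the double-mutant against WT, and their part in the collagen values was not tested. Each count stands beside 19.1% of all genes higher and 6.26% lower, and in a short list 1 gene makes a large share. Of 8 fibroblast markers 1 rose (Pdgfra) and 0 fell, with a median log2 fold change of -0.42, and their summed FPKM was from 226 to 356 in WT and 158, 143 and 589 in double-mutant replicates 1 to 3. Dcn alone gave 124, 74.6 and 374 FPKM of these double-mutant sums. Within the double-mutant, replicate 3 was the highest library for Col1a1, Col1a2, Col3a1, Col6a1, Col6a2, Col14a1 and Col16a1. It was the lowest for Col5a2, Col11a1, Col4a1, Col4a2, Col4a6, Col8a1 and Col15a1. The summed FPKM of the 8 smooth muscle markers was from 1270.0 to 1800.0 in WT, 1410.0 and 2300.0 in Trp53pcR172H/-, 1610.0, 315 and 816 in Pb-ERG and 83.9, 132 and 454 in the double-mutant. The sum of the 4 basal epithelial markers was from 46.7 to 112 in WT and from 2.2 to 12.5 in the double-mutant. All 7 endothelial markers rose, from a sum of 16.7 to 23.9 in WT to one of 47.3 to 67.6 in the double-mutant. Of 6 pericyte markers 3 rose (sums of 11.4 to 18.4 in WT and 38.2 to 43.1 in the double-mutant), and of 4 leukocyte markers tested 3 rose (10.1 to 13.8 and 16.8 to 92.1). Of the markers tested, 2 of 4 skeletal muscle, 1 of 5 adipocyte, 1 of 2 glial, 3 of 6 luminal and 1 of 6 seminal vesicle genes fell and none rose. Seminal vesicle secretory genes ranged in sum from 67.1 to 28400 FPKM among the Pb-ERG libraries alone and from 94.0 to 706 in the double-mutant.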

How the data were processed

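RNA from whole prostate was sequenced, and the deposited values are FPKM per locus, computed by the authors: libraries were made with an unstranded kit, paired-end reads were aligned to GRCm38 (mm10) with STAR (2.5.2b in the submitters' processing notes), and fragments per locus were counted and normalised with RSeQC. Whole fragments were recovered from the steps of the FPKM (tolerance 0.001) and served for depth and for limma-voom. Groups and replicate numbers came from the labels of the 11 libraries, and 0 columns belonged to other samples.

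Of 29291 loci, 15583 with at least 1 FPKM in at least 2 libraries were tested with limma 3.58.1 (R 4.3.3, trended eBayes, 7 residual degrees of freedom, two-sided) on log2(FPKM + 1), in 1 model of all groups. A fold change on this scale understates the change of low genes. All adjusted p-values are Benjamini-Hochberg values over all genes tested. The study called genes at 0.001 with DESeq2, a model of read counts, which FPKM do not allow. Limma on FPKM has little power at 0.001, so a call here is an adjusted p under 0.05 with the count at 0.001 beside it. Exact permutation tests (scipy 1.17.1) were used for chain ratios, where 3 against 3 libraries cannot go below 0.1. Scripts were tested on simulated data. Antisense and overlapping genes cannot be separated without strand.

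The collagens, their classes, the pathway lists and the marker lists were chosen with earlier results of these data known. Values are given library by library for collagens with a mean of at least 10 FPKM over the 11 libraries, and for those called in any comparison with a mean of at least 1 FPKM in their highest group. Other collagens whose values are given were named as members of a class, after their values were seen.

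Alternatives were median-of-ratios scaling, rescaling of FPKM to the same sum per library (TPM scaling), a pseudocount of 0.1, no filter, the compared groups only, the replicate number as a block, the small non-coding RNA class (over or under 4% of fragments) as a term, limma-voom, a threshold of 0.001, and leaving out each library. Same-numbered Pb-ERG and double-mutant libraries deviated together from their group means (r = 0.126, 0.249 and 0.33 across genes, for replicates 1 to 3). On these data alone, the replicate number was used as a block in that alternative, across all 4 groups. The main fit and the exact permutation tests were not paired. In the other comparisons at least 1 of the correlations was not above 0.1, apart from Trp53pcR172H/- against WT with 2 numbers (r = 0.234 and 0.351). Promoter windows were taken from RefSeq records (GRCm38.p6), and chain features from GENCODE M21 transcripts, with a run counted from 5 triplets. Other genotypes of the study were not analysed here.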

Additional observations from a re-analysis of the deposited data

How the results depend on the processing

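The fits were repeated under 19 alternatives for 49 differences of single collagens, the calls and that of Col16a1 against WT. None changed direction: of 931 recomputed values 825 kept their side of the threshold, 104 lost the call and 2 gained it. Of the 17 collagens called in the double-mutant against WT, 12 were called in each of the 19 repeated fits at the threshold of 0.05. At a threshold of 0.001 the counts were 10 in the double-mutant against WT, 0 in Pb-ERG against WT, 0 in the double-mutant against Pb-ERG and 7 against Trp53pcR172H/-. With TPM scaling 7 collagens were called in Pb-ERG against WT in place of 3, and 4 in the double-mutant against Pb-ERG in place of 12. The median log2 fold change of all genes in Pb-ERG against WT moved with this scaling from 0.13 to 0.56. With no filter, and with the small non-coding RNA class in the fit, 0 were called in Pb-ERG against WT. With that class 0 were called in the double-mutant against Pb-ERG, where group and class cannot be told apart. The log2 differences there went from 1.72 to 1.79 for Col10a1, from 2.04 to 2.22 for Col5a2 and from -1.24 to -0.63 for Col17a1. With the compared groups only, and thus fewer libraries in the estimate of the spread, 6 were called in the double-mutant against Pb-ERG and 10 against Trp53pcR172H/- (16 with all groups). Leaving out 1 library gave 0 to 7 calls in Pb-ERG against WT and 0 to 4 for the interaction. Except where stated, the cause was not tested.

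With the replicate block, the counts were 19 in the double-mutant against WT (Col8a2 and Col16a1 added), 4 in Pb-ERG against WT (Col3a1 added), 0 in Trp53pcR172H/- against WT, 11 in the double-mutant against Pb-ERG (Col12a1 lost, adjusted p = 0.0551, limma), 16 against Trp53pcR172H/- and 0 for the interaction. It changed no other call.

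Depth limits the low members: Col10a1 and Col11a1 rested on 3 to 6 and 10 to 22 fragments in WT, and the 13 collagens that did not pass the filter carry no test. Values of Trp53pcR172H/- rest on 2 libraries.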
